A study of Mus musculus with 9 samples.

Results

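Srebf2, Insig1, Hmgcs1, Idi1, Fdps, Fdft1, Sqle and Lss are genes of the cholesterol synthesis pathway and its control. They were taken by their symbols, not by their values, and make up 8 of the 24539 genes in the count table. All 8 were among the 16745 genes tested. The RNA came from inguinal white adipose tissue, a subcutaneous fat depot, of 9 chow-fed C57BL/6 mice, and each mouse gave 1 library. The mice labelled KO (Adi-Tet1KO) carry floxed Tet1 and Cre recombinase driven by the Fabp4 promoter, which is on in fat cells but also in macrophages, and the WT mice are Tet1 floxed controls. There were 2 KO mice (1781 and 1782) and 3 WT mice (1773, 1783 and 1812) after 4 h at 4 °C (cold), and 2 KO mice (1786 and 1814) and 2 WT mice (1788 and 1810) at room temperature (RT). Age was not given in the sources used here for any mouse. The labels describe whole frozen tissue, while the design text speaks of fractionated adipocytes.

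Cells make cholesterol from acetyl-CoA. HMGCS1 acts on the way to mevalonate, IDI1 and FDPS build farnesyl diphosphate from it, FDFT1 turns that into squalene, and SQLE and LSS turn squalene into lanosterol, the first sterol. The transcription factor SREBP2, the product of Srebf2, switches on the genes of these enzymes. When sterols are plentiful, INSIG1 holds SREBP2 and its escort SCAP in the endoplasmic reticulum. Insig1 is itself a target of SREBPs. White fat stores much of its cholesterol as free sterol around the lipid droplet. None of the 8 genes is an uptake receptor, and other cholesterol genes are described below from a wider list.

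Promoter sequences, from RefSeq (GRCm38.p6), covered 250 bases before and 50 bases after the start of the gene and matched 5 of the 8 genes (Srebf2, Insig1, Hmgcs1, Idi1 and Lss). Fdps, Fdft1 and Sqle are named only. The letters of motifs for factors known to act on sterol genes were searched on both strands: TCACNCCAC (a sterol regulatory element, SRE), CCAAT (NF-Y) and GGGCGG (Sp1). The SRE letters stood in 1 of the 5 promoters, that of Hmgcs1, and in 1.24% of 32851 mouse promoters of the same length. The NF-Y letters stood in 5 of 5 against 37.4% of all promoters, and the Sp1 letters in 5 of 5 against 35.7%. The Hmgcs1 promoter is shown because it held the SRE, which began 137 bases before the start. Insig1 is shown for its place in the comparison of genotypes below and Idi1 for its place in the comparison of housing. Each is on the plus strand, and capitals mark the SRE and every CCAAT or its reverse complement ATTGG. A match is a run of letters, and binding was not measured.
Hmgcs1, chr13:119690101-119690400: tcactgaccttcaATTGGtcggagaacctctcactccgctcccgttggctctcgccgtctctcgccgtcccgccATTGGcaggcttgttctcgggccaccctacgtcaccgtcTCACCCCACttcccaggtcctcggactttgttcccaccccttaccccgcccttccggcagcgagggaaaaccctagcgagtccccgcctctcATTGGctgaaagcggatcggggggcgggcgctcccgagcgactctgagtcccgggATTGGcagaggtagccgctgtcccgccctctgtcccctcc
Insig1, chr5:28071162-28071461: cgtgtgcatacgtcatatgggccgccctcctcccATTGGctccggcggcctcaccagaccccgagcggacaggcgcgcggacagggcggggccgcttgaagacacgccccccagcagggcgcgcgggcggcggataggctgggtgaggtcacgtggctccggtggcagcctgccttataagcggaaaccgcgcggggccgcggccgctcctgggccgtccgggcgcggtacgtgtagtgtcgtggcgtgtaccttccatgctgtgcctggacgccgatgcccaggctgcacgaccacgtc
Idi1, chr13:8885356-8885655: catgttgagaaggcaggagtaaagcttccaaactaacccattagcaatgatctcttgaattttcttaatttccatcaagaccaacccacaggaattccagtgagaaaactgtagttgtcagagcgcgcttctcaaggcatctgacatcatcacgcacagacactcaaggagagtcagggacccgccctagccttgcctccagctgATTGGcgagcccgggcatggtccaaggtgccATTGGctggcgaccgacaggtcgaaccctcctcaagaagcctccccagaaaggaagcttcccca

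Library totals lay between 47605902 and 56292251 counts. Levels are given as CPM, the counts scaled to library size by the TMM method. Tet1, the targeted gene, was at 10.2 and 5.30 CPM in mice 1781 and 1782, labelled KO in cold, and at 5.33, 3.87 and 3.98 CPM in WT in cold. At RT it was at 12.3 and 5.91 CPM in mice 1786 and 1814, labelled KO, and at 4.51 and 4.01 CPM in WT. Tet1 was thus not lower in the libraries labelled KO (log2 fold change over both housings 0.96, SE 0.27, edgeR adjusted p 0.292), which goes against the label. Counts over the whole gene do not separate its deleted part from the rest, and KO below is a label throughout. The titles and the column names of mice 1781 and 1786 disagree on housing, and the column names were followed. Dio2, which cold induces in fat, was at 243 CPM in mouse 1781, against 54.1 CPM in mouse 1786. The other cold libraries held 125 to 487 CPM of Dio2 and the other RT libraries 10.9 to 83.5 CPM. Adipoq, a fat cell marker, was at 593 CPM in mouse 1781 and at 1369 to 1878 CPM in the other libraries. Markers of stromal, endothelial, immune, epithelial and muscle cells were all detected, so the libraries hold RNA of other cells too, and in bulk RNA fewer cells of a type and less RNA per cell cannot be told apart.

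All 8 genes were expressed in every library. The RPKM columns of mice 1781 and 1786 were not used, which leaves 7 libraries. By RPKM, which is counted per gene length and so allows genes to be compared, the order of the medians was Insig1, Hmgcs1, Fdps, Srebf2, Fdft1, Sqle, Lss and Idi1. Insig1 had a median of 76.6 RPKM (53.3 to 114), Hmgcs1 of 48.6 RPKM (36.2 to 60.0) and Fdps of 25.6 RPKM (16.2 to 49.7). Srebf2 had a median of 21.9 RPKM (17.2 to 26.1), Fdft1 of 14.4 RPKM (12.2 to 18.2) and Sqle of 11.3 RPKM (8.97 to 12.8). Lss had a median of 4.56 RPKM (3.37 to 9.09) and Idi1 of 3.83 RPKM (2.59 to 6.09). Each gene's range overlapped that of the next in order. Within each library, however, the order held for all neighbours except Fdps and Srebf2. Srebf2 lay above Fdps in mouse 1788 (26.1 against 24.3 RPKM) and in mouse 1773 (25.3 against 16.2 RPKM).

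The genes fell into a steady and a variable set. The SD of log2 CPM within groups was 0.0891 for Fdft1, 0.104 for Srebf2 and 0.139 for Sqle. It was 0.31 for Idi1, 0.38 for Hmgcs1, 0.40 for Insig1, 0.42 for Lss and 0.56 for Fdps. Several of the variable genes differed in 1 direction between mice of the same group. Of the 2 WT mice at RT, mouse 1810 had 1.77 times the Lss, 1.70 times the Fdps and 1.56 times the Hmgcs1 of mouse 1788. Mouse 1814, labelled KO at RT, was among the highest 3 libraries for 7 of the 8 genes, and mouse 1773, WT in cold, was the lowest library for 5. Over the 28 pairs of genes, Pearson r of log2 CPM across the 9 libraries had a median of 0.53 and lay between -0.37 and 0.94, and 24 were positive. It was highest for Fdps with Lss (0.94) and for Idi1 with Lss (0.91). After group means were taken out, 18 of the 28 were positive, with a median of 0.22. These libraries share housing and genotype, so the correlations are a description.

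**Figure D1:**
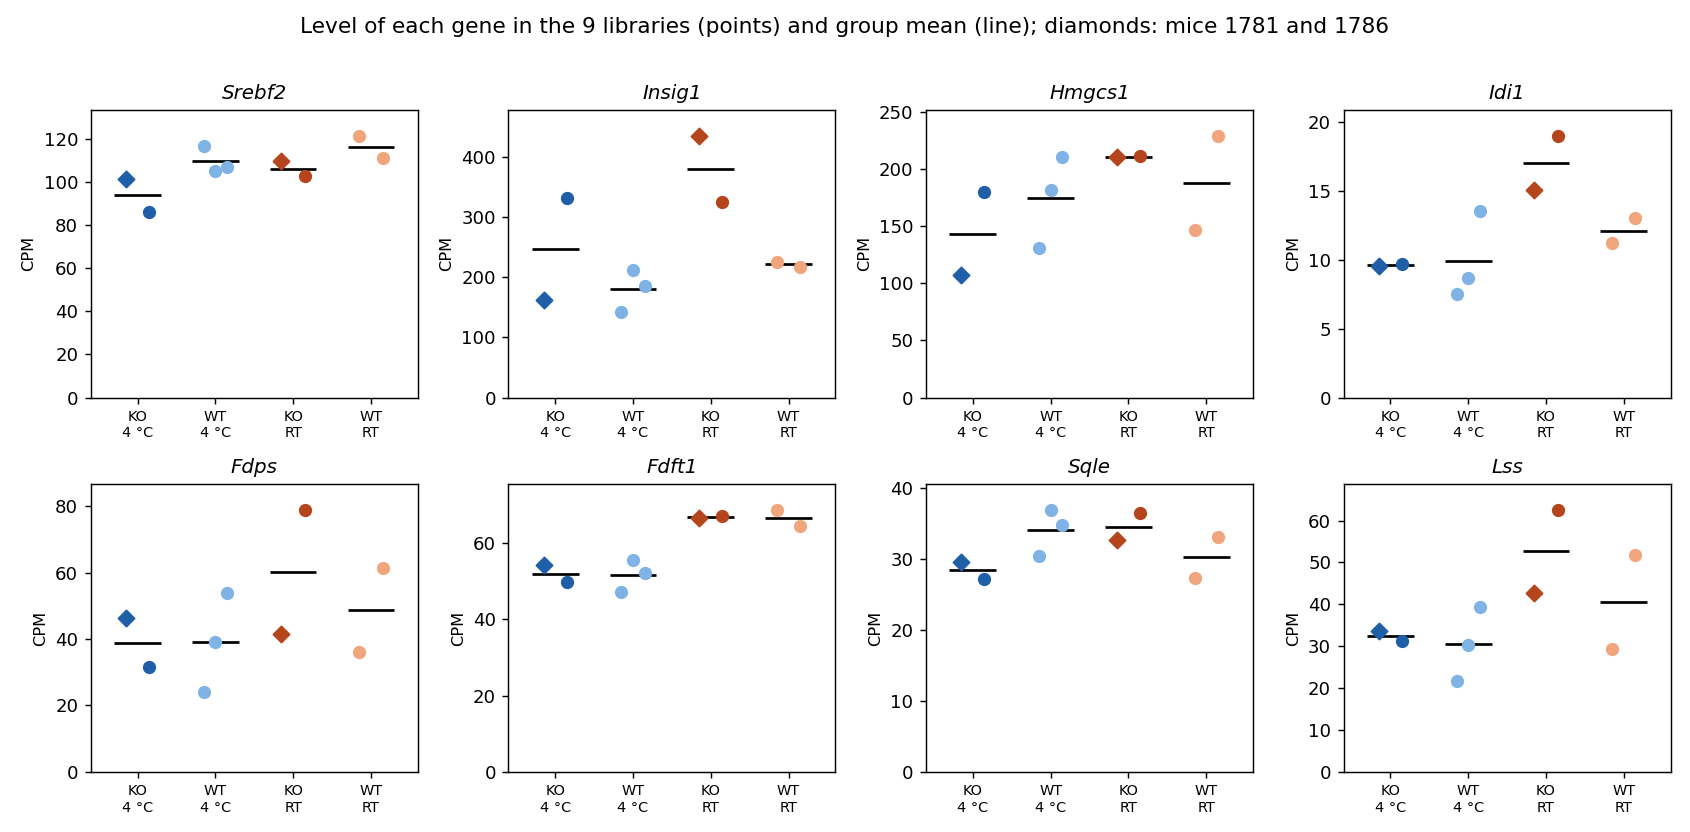
Level of each of the 8 genes in CPM (y axis, from 0) in mice labelled KO and WT mice at 4 °C and at RT. Each point is 1 library, lines are group means, and diamonds mark mice 1781 and 1786. Fdft1 lay at 47.2 to 55.6 CPM in cold and at 64.6 to 68.6 CPM at RT, while the cold and RT libraries of Fdps and Sqle overlap.

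The cold against RT comparison asks how 4 h at 4 °C changed the tissue, here averaged over both genotypes. All 8 genes had a lower fitted level in cold, with a median log2 fold change of -0.41 against 0.00 over all genes tested. When housing followed the sample titles the median was -0.14, and 3 of the 8 (Insig1, Hmgcs1 and Sqle) were positive. Fdft1 was the one gene of the 8 with an adjusted p under 0.05, at about 0.776 times its RT level. None of the 8 passed both the adjusted p of 0.05 and the 1.5-fold change required for a call. In edgeR's quasi-likelihood test 0 of 8 were called higher and 0 of 8 lower, where 1.6% of all genes tested were called higher and 1.55% lower. When housing followed the sample titles, edgeR called 0 of all genes higher and 1 lower. DESeq2 also called 0 of 8. In edgeR 3 of 8 had an unadjusted p under 0.05, against 23.5% of all genes. With the adjusted p alone, a rule chosen after seeing the data, 1 of 8 (Fdft1) was lower and 0 higher, where 2.86% of all genes were lower and 3% higher.

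Srebf2 (chr15:82147181-82205379) encodes SREBP2, and gene positions here and below are those of GRCm38 (mm10). It was at 102 and 86.4 CPM in mice 1781 and 1782, labelled KO in cold, and at 117, 105 and 107 CPM in WT in cold. Its RT levels were 109.7 and 103 CPM in mice labelled KO and 121 and 111 CPM in WT. The groups lay close together, with mouse 1782 the lowest of the 9 libraries. Its log2 fold change in cold was -0.13 (SE 0.0790, edgeR adjusted p 0.366).

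Insig1 (chr5:28071363-28078662) encodes the protein that retains SREBP2 in the endoplasmic reticulum. It was at 162 and 332 CPM in mice 1781 and 1782, labelled KO in cold, and at 143, 212 and 186 CPM in WT in cold. The values at RT were 435 and 325 CPM in mice labelled KO and 226 and 217 CPM in WT. The RT libraries labelled KO were high, and in cold mouse 1782 lay between them while mouse 1781 lay in the WT range. The log2 fold change in cold was -0.46 (SE 0.22, edgeR adjusted p 0.245). It was -0.76 without mouse 1782 and -0.24 without mouse 1781, fits that each leave 1 mouse labelled KO in cold. With housing by sample titles it was 0.18 (edgeR adjusted p 0.943).

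Hmgcs1 (chr13:119690379-119708260), whose enzyme makes HMG-CoA, was at 107 and 180.0 CPM in mice labelled KO in cold and at 131, 182 and 211 CPM in WT in cold. In the RT libraries it was at 210.5 and 212 CPM in mice labelled KO and at 147 and 229 CPM in WT. Mice 1781 and 1773 lay below every RT library, and the WT groups overlapped. Its log2 fold change in cold was -0.33 (SE 0.21, edgeR adjusted p 0.376).

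Idi1 (chr13:8885501-8892451), whose enzyme isomerises isopentenyl diphosphate, was at 9.54 and 9.67 CPM in mice labelled KO in cold and at 7.51, 8.65 and 13.5 CPM in WT in cold. RT libraries had 15.1 and 18.96 CPM in mice labelled KO and 11.2 and 13.02 CPM in WT. Apart from mouse 1812, every cold library lay below every RT library. The log2 fold change was -0.56 (SE 0.18, edgeR adjusted p 0.108). Without mouse 1812 it was -0.70 and Idi1 was called (edgeR adjusted p 0.0305). That fit called 191 of all genes lower and 209 higher. Over all alternatives the adjusted p of Idi1 was 0.0305 to 0.934.

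Fdps (chr3:89093588-89101959), whose enzyme makes farnesyl diphosphate, was at 46.2 and 31.6 CPM in mice labelled KO in cold and at 24.0, 39.2 and 54.0 CPM in WT in cold. Levels at RT were 41.4 and 78.8 CPM in mice labelled KO and 36.2 and 61.4 CPM in WT. Every group spanned a wide range and all overlapped. Its log2 fold change of -0.47 had an SE of 0.29 (edgeR adjusted p 0.370).

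Fdft1 (chr14:63145150-63179578) encodes squalene synthase, the first step given over to sterols. It was at 54.1 and 49.8 CPM in mice labelled KO in cold and at 47.2, 55.6 and 52.2 CPM in WT in cold. At RT it was at 66.7 and 67.2 CPM in mice labelled KO and at 68.6 and 64.6 CPM in WT. All 5 cold libraries lay below all 4 RT libraries, in both genotypes. Fdft1 was the one gene of the 8 with this pattern, which 6.01% of all genes tested shared. Its log2 fold change was -0.37 (SE 0.0720, edgeR adjusted p 0.0276), and the same value, -0.37, was fitted in mice labelled KO and in WT. The adjusted p was above 0.05 when any 1 of 6 mice (1782, 1786, 1788, 1810, 1812 or 1814) was left out, and lay between 0.0415 and 0.0903 over the 9 such fits. It was 0.821 when housing followed the sample titles, and over all alternatives it ranged from 4.15e-04 to 0.821. Fdft1 shares 774 exonic bases with Ctsb on the other strand, and the strand setting of the counts is not given. Ctsb had a log2 fold change of -0.28 (SE 0.12) in the same comparison, and its part in the Fdft1 counts was not tested.

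Sqle (chr15:59315077-59331192), whose enzyme adds oxygen to squalene, was at 29.6 and 27.2 CPM in mice labelled KO in cold and at 30.5, 36.9 and 34.8 CPM in WT in cold. Its RT levels were 32.6 and 36.4 CPM in mice labelled KO and 27.4 and 33.1 CPM in WT. In mice labelled KO both cold libraries lay below both RT libraries, while in WT the groups overlapped. The mean log2 fold change was -0.0548 (SE 0.0934, edgeR adjusted p 0.774).

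Lss (chr10:76531588-76557138), whose enzyme closes the sterol rings, was at 33.6 and 31.2 CPM in mice labelled KO in cold and at 21.6, 30.3 and 39.4 CPM in WT in cold. The values at RT were 42.8 and 62.4 CPM in mice labelled KO and 29.3 and 51.7 CPM in WT. The lowest library was WT mouse 1773 in cold and the highest was mouse 1814. Its log2 fold change was -0.56 (SE 0.22, edgeR adjusted p 0.178). Lss shares 381 exonic bases with 4930483K19Rik on the other strand, which lay at no more than 3.57 CPM in any library. Hmgcs1, Idi1 and Fdps share exonic bases with genes that were not in the count table.

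No gene of the 8 passed the threshold for cold within a genotype. In mice labelled KO all 8 log2 fold changes for cold were negative (median -0.59), and the largest were those of Idi1 (-0.82, SE 0.27, edgeR adjusted p 0.199) and Lss (-0.70, SE 0.33, edgeR adjusted p 0.358). In 6 of the 8 genes (all but Insig1 and Fdps) both cold libraries lay below both RT libraries, as they did for 20.7% of all genes tested. The median of the 8 moved to -0.38 without mouse 1814 and to -0.10 when housing followed the sample titles. With housing by titles edgeR called 0 of all genes higher and 0 lower for cold in mice labelled KO. In WT 7 of 8 were negative (median -0.29) and Sqle was positive at 0.17 (SE 0.13, edgeR adjusted p 0.616). That median moved to -0.0451 without mouse 1810. In edgeR and in DESeq2 0 of 8 were called in either genotype, where edgeR called 0.191% of all genes higher and 0.143% lower in mice labelled KO, and 0.197% higher and 0.173% lower in WT. An unadjusted p under 0.05 was seen for 2 of 8 in mice labelled KO (Fdft1 and Idi1) and for 1 of 8 in WT (Fdft1), against 15.6% and 13.2% of all genes.

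**Figure D2:**
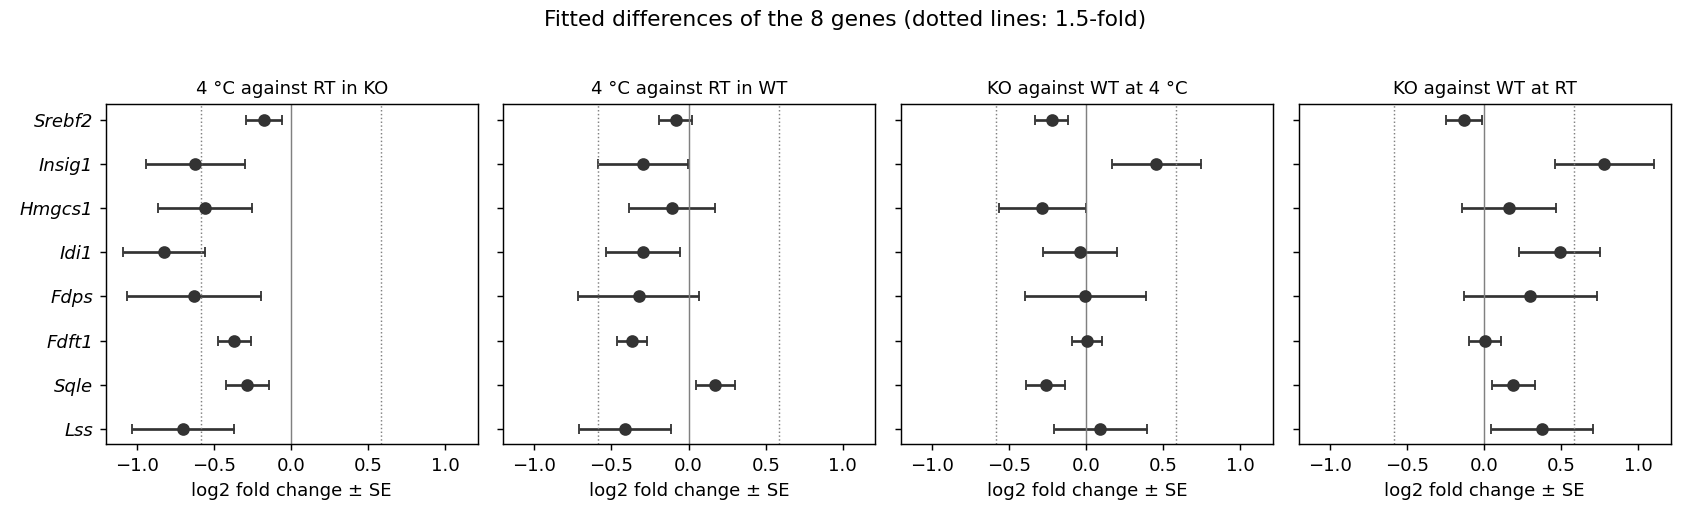
Fitted log2 fold change (x axis) of each of the 8 genes, with its SE as a bar, for cold against RT in mice labelled KO and in WT and for mice labelled KO against WT in cold and at RT. Dotted lines mark a 1.5-fold change. All 8 points lie left of 0 for cold in mice labelled KO, down to -0.82 for Idi1, and Insig1 lies farthest right in both comparisons of genotype, at 0.45 and 0.78.

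Marker lists of several cell types were summed per library, and the sums in cold and at RT overlapped for each of the following lists. The summed level of 5 adipocyte markers lay between 7100.5 CPM (mouse 1781) and 15077 CPM in cold, against 8815 to 9876 CPM at RT. All cold libraries but mouse 1781 lay at 11385 CPM or more, above every RT library. The markers did not move as one in cold over both genotypes. Log2 fold changes were positive for Cidec (0.82), Fabp4 (0.46) and Lep (0.34). They were negative for Adipoq (-0.32) and Plin1 (-0.17), and none of these adipocyte markers was called. The sum of 5 fibroblast and progenitor markers was 4080.1 (mouse 1782) to 5863 CPM in cold, against 3742 to 4594 CPM at RT. All cold libraries but mouse 1782 lay at 4623 CPM or more, above every RT library. Of these markers, Pdgfra was called higher in cold (log2 fold change 0.81, edgeR adjusted p 0.0242). Dcn (0.31) and Col1a1 (0.16) were also positive, Pi16 (-0.14) and Dpp4 (-0.15) were negative, and none of these was called. The sum of 5 mammary epithelial markers was 1752 (mouse 1782) to 2254 CPM in cold, against 1492 to 1785 CPM at RT. All cold libraries but mouse 1782 lay at 1968 CPM or more, again above every RT library. Log2 fold changes of these epithelial markers were 0.32 for Krt8, 0.30 for Krt18 and 0.24 for Krt5. They were 0.02 for Epcam and -0.05 for Krt14, and none of them was called. None of these 15 markers was at 0 in any library, and their part in the levels of the 8 genes was not tested.

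The KO against WT comparison was designed to ask what deletion of Tet1 in fat cells changes, although Tet1 counts were not lower in the libraries labelled KO. At RT 7 of the 8 genes had a higher fitted level in mice labelled KO (median log2 fold change 0.25, against -0.01 over all genes), the exception being Srebf2 (-0.13, SE 0.12, edgeR adjusted p 0.821). The median moved to 0.0387 without mouse 1788, where 5 of 8 were positive, and to 0.56 without mouse 1810. With housing by sample titles 5 of 8 were positive and the median was 0.13. Insig1 had the largest difference, 0.78 (SE 0.32), at 379.8 ± 77.5 CPM in mice labelled KO against 221 ± 6.20 CPM in WT (SD, n = 2 each). Both libraries labelled KO lay above both WT libraries, but its edgeR adjusted p was 0.667. The value for Insig1 was 0.14 when housing followed the sample titles and 0.56 without mouse 1786. Idi1 was the other gene of the 8 with both libraries labelled KO above both WT libraries (0.49, SE 0.26, edgeR adjusted p 0.730), a pattern of 2 of 8 that 19.8% of all genes shared. In edgeR and in DESeq2 0 of 8 were called, where edgeR called 0.0358% of all genes higher and 0% lower. Insig1 was the 1 gene of 8 with an unadjusted p under 0.05, against 7.40% of all genes. The summed level of 4 thermogenic adipocyte markers at RT was 388 and 844 CPM in mice labelled KO, against 59.3 and 38.6 CPM in WT. That of 5 macrophage markers was 199 and 326 CPM in mice labelled KO, against 507 and 424 CPM in WT. None of these markers was at 0 in any library, and their part in the levels of the 8 genes was not tested.

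In cold 5 of the 8 log2 fold changes for mice labelled KO against WT were negative and 3 positive (median -0.0221, against 0.01 over all genes). Insig1 was again the highest, at 0.45 (SE 0.29, edgeR adjusted p 0.878), but its groups overlapped, and without mouse 1782 the value was -0.15. Sqle (-0.26, SE 0.13, edgeR adjusted p 0.846) and Srebf2 (-0.22, SE 0.11, edgeR adjusted p 0.846) lay lower in both libraries labelled KO than in every WT library, as did 9.07% of all genes. In edgeR and in DESeq2 0 of 8 were called, where edgeR called 0.0776% of all genes higher and 0% lower. By edgeR 0 of 8 had an unadjusted p under 0.05, against 6.09% of all genes.

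Averaged over both housings, Insig1 had a log2 fold change of 0.62 (SE 0.22, edgeR adjusted p 0.353), which was 0.31 without mouse 1782, and Srebf2 of -0.18 (SE 0.0792, edgeR adjusted p 0.442). In edgeR and in DESeq2 0 of 8 were called, where edgeR called 0.113% of all genes higher and 0.0119% lower. By edgeR 1 of 8 (Insig1) had an unadjusted p under 0.05, against 11.6% of all genes. The difference of the genotype effects between cold and RT was negative for all 8 (median -0.32, against 0.01 over all genes). This direction turned when housing followed the sample titles, with 6 of 8 positive and a median of 0.0632, and the median was -0.52 without mouse 1773, -0.51 without mouse 1786, -0.62 without mouse 1810, -0.16 without mouse 1788 and -0.18 without mouse 1812. It shares its libraries with the comparisons above. The smallest unadjusted p was that of Sqle (-0.45, SE 0.19, p 0.0399 in edgeR's quasi-likelihood test across all genes), and its adjusted p was 1.00. In edgeR 0 of 8 passed in either direction, as did 0% of all genes higher and 0% lower. DESeq2 also called 0 of 8. In edgeR 1 of 8 had an unadjusted p under 0.05, against 2.74% of all genes. A difference in the cold response of these genes between genotypes was thus not detected with groups of 2 and 3 mice.

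The wider list held 44 genes of cholesterol synthesis, control, uptake, transport and efflux, the 8 included, and all 44 were tested. It was written with earlier results of these data known. No gene of the list was called by edgeR in any comparison. For cold over both genotypes 18 of 44 were positive and 26 negative, and 18 had an unadjusted p under 0.05 (40.9%, against 23.5% of all genes). DESeq2 called 4 of the 44 lower (Acat2, Dhcr7, Mvd and Mvk) and 0 higher, where it called 2.98% of all genes lower and 2.76% higher. Of the 8 genes of the mevalonate and isoprenoid steps 7 were negative, with a median of -0.52, and of the 13 genes of the squalene and sterol steps 8 were, with a median of -0.0723. The 7 genes of SREBP control had a median of 0.02, with 4 positive and 3 negative, from -0.53 to 0.27. The 9 of uptake and intracellular transport had a median of -0.0154, with 4 positive and 5 negative. The 7 genes of esterification, efflux and LXR had a median of 0.12, with 4 positive and 3 negative. By role, in this order, 4, 5, 3, 2 and 4 genes had an unadjusted p under 0.05 in edgeR.

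Dhcr7, which makes cholesterol in the last step of one branch, was at 19.7 and 17.3 CPM in mice labelled KO in cold and at 15.5, 19.6 and 21.01 CPM in WT in cold. Its levels at RT were 28.9 and 31.6 CPM in mice labelled KO and 22.3 and 28.9 CPM in WT. All 5 cold libraries lay below all 4 RT libraries, the pattern of 6.01% of all genes. The log2 fold change was -0.58 (SE 0.12, edgeR adjusted p 0.0319), just short of 1.5-fold. Mylip, a ubiquitin ligase that oxysterol receptors (LXRs) induce, was at 158 and 151 CPM in mice labelled KO in cold and at 124, 109 and 125 CPM in WT in cold. The RT values were 105 and 106 CPM in mice labelled KO and 106 and 72.8 CPM in WT. Its cold libraries all lay above its RT libraries, as for 5.89% of all genes, with a log2 fold change of 0.48 (SE 0.11, edgeR adjusted p 0.0464), also short of 1.5-fold. When housing followed the sample titles the values were -0.30 for Dhcr7 and 0.18 for Mylip, with edgeR adjusted p of 0.878 and 0.923. Leaving out each mouse in turn gave -0.67 to -0.48 for Dhcr7 and 0.36 to 0.63 for Mylip. Without WT mouse 1773, 1783 or 1812 the edgeR adjusted p of Mylip was 0.0884, 0.0758 and 0.0855. That of Dhcr7 was 0.0488, 0.0681 and 0.0426 in the same fits.

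**Figure D3:**
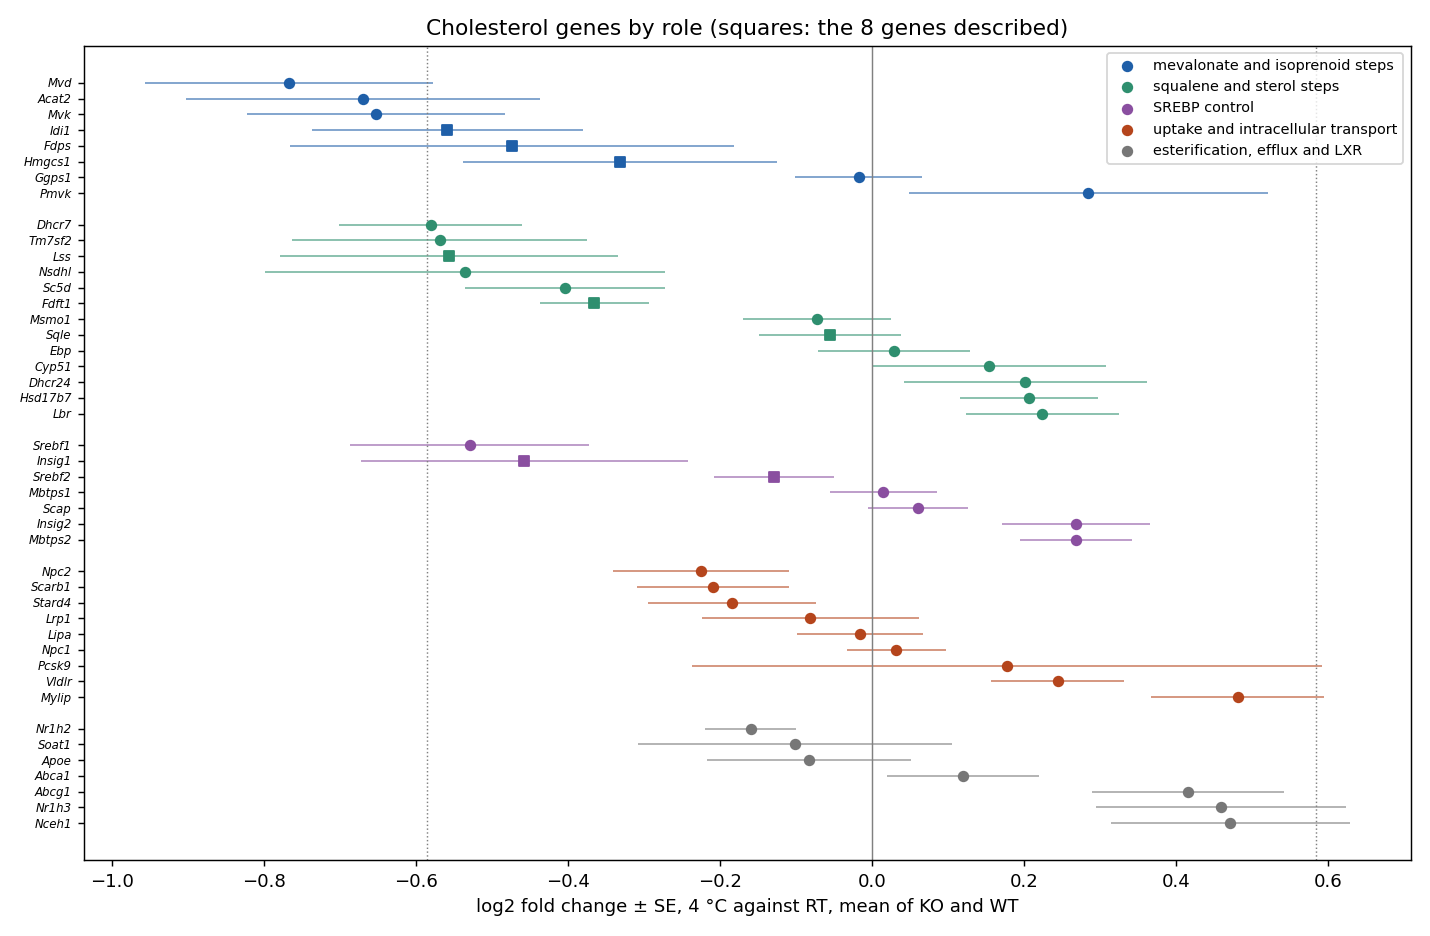
Log2 fold change for cold against RT, averaged over mice labelled KO and WT (x axis, with SE), of the 44 genes of the list, grouped by role and sorted within each. Squares are the 8 genes and dotted lines mark a 1.5-fold change. The squares all lie left of 0, between -0.56 (Idi1) and -0.0548 (Sqle), and Mylip lies at 0.48.

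Vldlr, the receptor for VLDL, was at 89.4 and 86.5 CPM in mice labelled KO in cold and at 83.3, 87.5 and 104 CPM in WT in cold. Levels at RT were 86.5 and 102 CPM in mice labelled KO and 60.5 and 61.1 CPM in WT. The WT libraries at RT were the low group, below all the others. Its log2 fold change was 0.63 (SE 0.13, edgeR adjusted p 0.388) for mice labelled KO against WT at RT and 0.59 (SE 0.12, edgeR adjusted p 0.0918) for cold against RT in WT. DESeq2 called Vldlr higher in both of these comparisons, where it called 0.387% and 1.53% of all genes higher.

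Ebp, a sterol isomerase, was at 40.3 and 44.4 CPM in mice labelled KO in cold and at 51.4, 60.7 and 67.7 CPM in WT in cold. Its RT levels were 37.2 and 44.7 CPM in mice labelled KO and 57.99 and 61.1 CPM in WT. All 4 libraries labelled KO lay below all 5 WT libraries, as they did for 1.95% of all genes. Ebp had the lowest p of the list for genotype over both housings, with a log2 fold change of -0.52 (SE 0.10), but its edgeR adjusted p was 0.179. Over all alternatives the adjusted p was 0.00397 (DESeq2) to 0.484, and no alternative called Ebp, since the change was short of 1.5-fold or the adjusted p above 0.05.

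**Figure D4:**
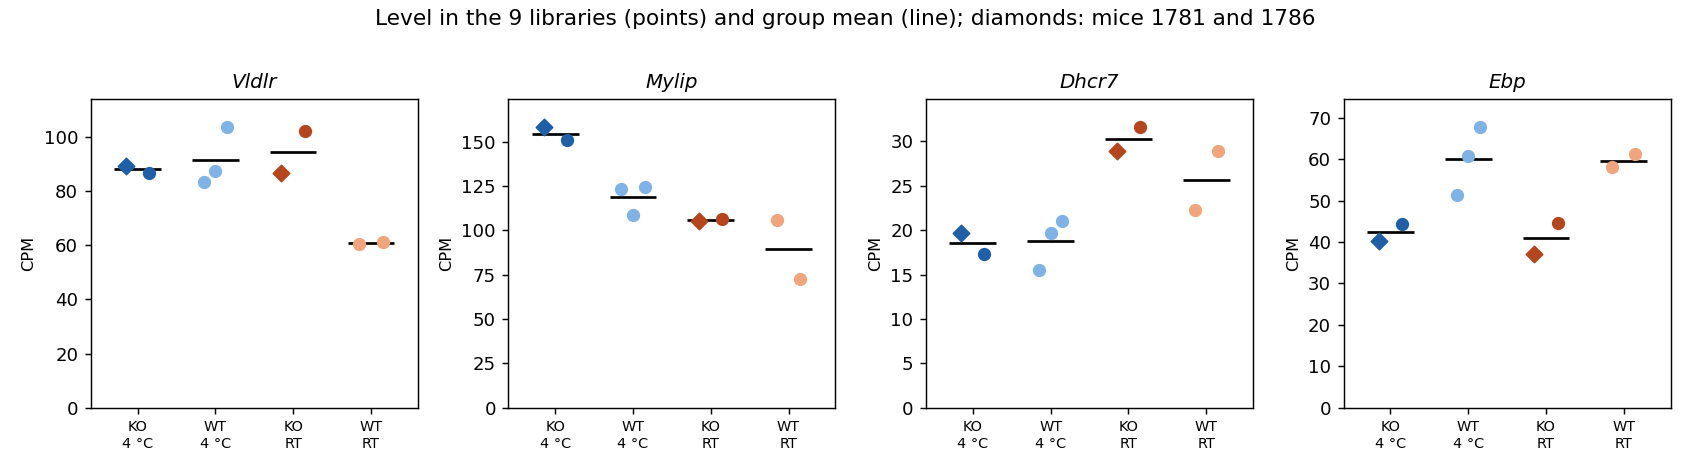
Level in CPM (y axis, from 0) of Vldlr, Mylip, Dhcr7 and Ebp in mice labelled KO and WT mice at 4 °C and at RT. Each point is 1 library, lines are group means and diamonds mark mice 1781 and 1786. Dhcr7 lies lower in the cold libraries (15.5 to 21.01 CPM) than at RT (22.3 to 31.6 CPM), and WT at RT is the low group for Vldlr.

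To find genes with a like pattern, log2 CPM of the 8 genes was z-scored and averaged per library, and each tested gene outside the list was ranked by Pearson r with that mean over the 9 libraries. The highest r were those of Prickle4 (0.974), Unc119 (0.968), Hps5 (0.964), Mir5114 (0.963), Pnpla3 (0.956), Scd2 (0.956), Snx7 (0.953), Gnptab (0.952), Dusp19 (0.952) and Tlcd1 (0.946). These 10 were picked from all tested genes, so a high r is built into the choice. Without the 2 libraries farthest from the median of the mean z-score, r was 0.969 for Prickle4, 0.951 for Pnpla3 and 0.904 for Scd2. Mir5114 lies wholly within an exon of Scd2 and shares its reads. Pnpla3 encodes a lipid droplet protein. It was at 107 and 152 CPM in mice labelled KO in cold and at 84.9, 167 and 259.7 CPM in WT in cold. At RT it was at 343 and 334 CPM in mice labelled KO and at 191 and 298 CPM in WT. Scd2 encodes a stearoyl-CoA desaturase. It was at 213 and 141 CPM in mice labelled KO in cold and at 108, 175 and 268 CPM in WT in cold. Its RT levels were 414 and 529.6 CPM in mice labelled KO and 209.5 and 419 CPM in WT. Both genes were lowest in mouse 1773, as were 5 of the 8 genes. The highest library was mouse 1786 for Pnpla3 and mouse 1814 for Scd2, both labelled KO at RT.

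**Figure D5:**
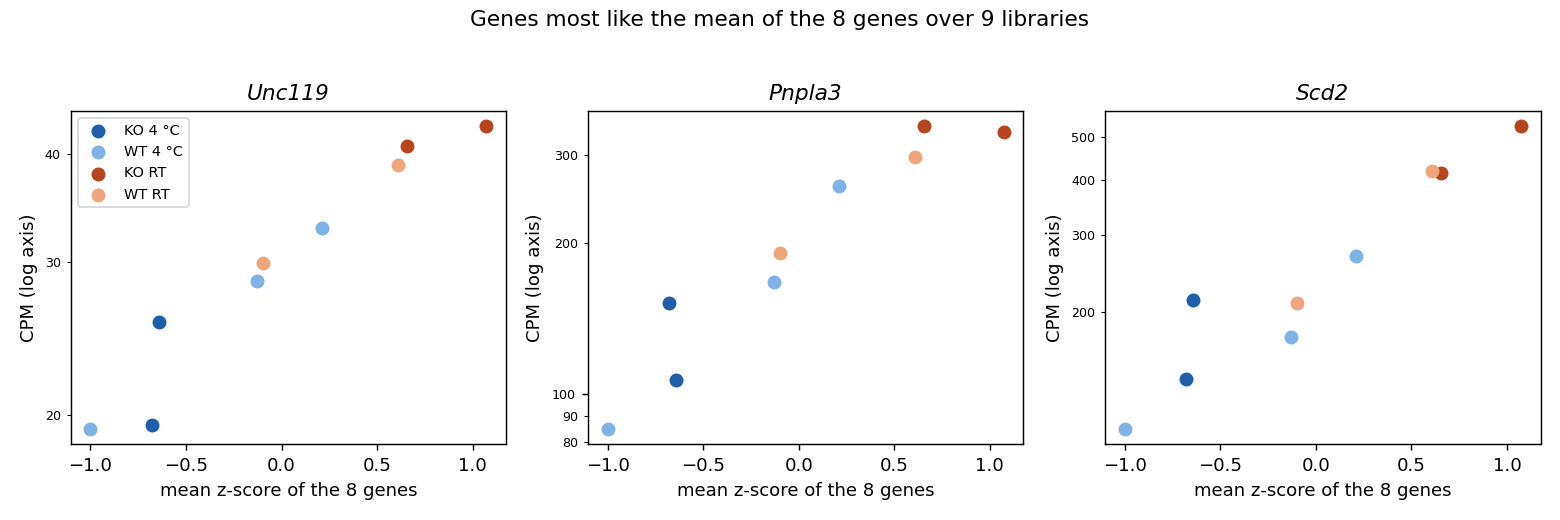
Level of Unc119, Pnpla3 and Scd2 in CPM (y axis, log scale) against the mean z-score of the 8 genes (x axis, no unit), 1 point per library, coloured by group. Mouse 1773 (WT in cold) sits lowest on the x axis and mouse 1814 (labelled KO at RT) highest at 1.07, and each gene's level is ordered much like the mean.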

How the data were processed

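RNA-seq of inguinal fat from 9 mice was analysed. The authors aligned reads to mm10 with STAR, kept reads mapping to 1 place, removed mitochondrial reads and deposited raw counts per gene from featureCounts, with RPKM values beside them. Tool versions, annotation and strand setting were not given in the sources used here for these steps. The deposited counts were tested in 1 fit of 4 groups with edgeR 4.0.16 (filterByExpr, TMM, robust glmQLFit, glmQLFTest, R 4.3.3, limma 3.58.1). Calls required a Benjamini-Hochberg adjusted p over 16745 genes under 0.05 and a fold change above 1.5. For the difference of the genotype effects between cold and RT, only the adjusted p was required. The deposited RPKM values only ordered levels between genes, and 2 RPKM columns (mice 1781 and 1786) were left out because their sample could not be matched by name. Mice 1781 and 1786 followed the column names, as their titles disagree. Replicates were not copies of each other: their counts differed by a chi-square of 54.3 to 165 per gene, at Pearson r of 0.980 to 0.988 (log2 CPM, prior count 2). The labels give 1 mouse per library, and p-values measure the spread between these samples.

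The alternatives were RLE scaling, no filter, DESeq2 1.42.0, housing by titles, both mice left out, each mouse left out and, added after seeing the data, the adjusted p alone. Named genes were the 8 members, up to 3 genes of the cholesterol list with the lowest p per comparison, and the 10 genes most like the members. Acat2 was named after its values were seen. Most other genes of the list enter the text only through counts and medians, and some further genes are not reported here. The members and lists were chosen with earlier results of these data known. Positions are from GENCODE vM21 (GRCm38). Figures used Python 3.11.15 and matplotlib 3.10.9.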

Additional observations from a re-analysis of the deposited data

How the results depend on the processing

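Of 728 named log2 fold changes recomputed under the alternatives, 710 kept their sign and 18 turned. With housing by sample titles the log2 fold change became 0.16 for Hmgcs1 (KO against WT in cold), 0.65 for Insig1, 0.29 for Hmgcs1 and 0.12 for Sc5d (cold in mice labelled KO), 0.18 for Insig1, 0.0926 for Hmgcs1 and 0.0144 for Sqle (cold over both genotypes), and 0.0371 for Msmo1 (difference of effects). With mice 1781 and 1786 left out it became 0.0344 for Hmgcs1 (KO against WT in cold) and 0.0219 for Insig1 (cold in mice labelled KO). Leaving out each mouse in turn gave -0.71 to 0.0346 for Hmgcs1 and -0.15 to 0.87 for Insig1 (KO against WT in cold), -0.39 to 0.25 for Hmgcs1, -0.65 to 0.11 for Fdps and -0.76 to 0.0550 for Lss (cold in WT), -0.22 to 0.0264 for Vldlr (cold in mice labelled KO), and -0.12 to 0.0175 for Sqle (cold over both genotypes). The cause was not tested.

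For cold over both genotypes, 1 of the 8 genes (Fdft1) was lower by the adjusted p alone, where 479 of all genes were. When a WT mouse in cold (1773, 1783 or 1812) was left out, 0 to 1 of the 8 were called lower. Those fits called 187, 144 and 191 of all genes lower and 176, 180 and 209 higher, in this order. Leaving out any other mouse keeps 1 mouse in a group, and calls from those fits are not counted here. Of the list of 44, the number called lower was 4 in DESeq2 (Acat2, Dhcr7, Mvd, Mvk). It was 1 with RLE scaling (Dhcr7), 1 without the filter (Mvd) and 2 by the adjusted p alone (Dhcr7, Fdft1). When mouse 1773, 1783 or 1812 was left out it was 0 to 3. The number called higher was 1 by the adjusted p alone (Mylip), where 503 of all genes were higher. Over all genes, 263 were called lower for cold over both genotypes with RLE scaling and 253 without the filter. For cold in WT, 1 was called higher in DESeq2 (Vldlr), where it called 247 of all genes higher and 235 lower. DESeq2 called 4 lower for cold in mice labelled KO (Dhcr7, Mvd, Mvk, Sc5d), where it called 295 of all genes lower and 309 higher. It called 1 higher for KO against WT at RT (Vldlr), where it called 61 of all genes higher and 58 lower. The adjusted p alone was a rule chosen after seeing the data. No paired analysis was possible because the labels number the mice, and no number is shared between groups. Each library held at least 47605902 counts and groups held 2 or 3 mice, and the effect of depth or group size on the calls was not tested.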
